A study of Mus musculus with 10 samples.

Results

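The genes described here are 38 genes of DNA replication and mitosis, chosen by name, of which 15 act mainly in DNA replication and 23 in mitosis. Their RNA was measured in 10 frozen mouse melanomas of strain C57BL6, 5 labelled pigmented and 5 labelled MPNST-like, after the malignant peripheral nerve sheath tumor. Every animal, in both groups, had the genotype BrafV600E-CDK4R24C. V600E is a change that activates the kinase Braf, and R24C is a change in the cell cycle kinase Cdk4 that stops the p16 family of inhibitors from binding it. In both groups, too, tamoxifen was put on the skin on 4 days to switch on the Braf allele, followed by 1 dose of the carcinogen DMBA. The labels give no age, no sex and no untreated group, and they do not say whether any of the tumors came from the same animal, so that p-values measure the spread between these samples. Of the 38 genes, 36 had a named probe on the array and 32 had a probe that 3 or more of the 10 arrays detected (detection p under 0.05). These 32 are the genes tested, out of 11984 in all. They comprise all 15 replication genes and 17 of 23 mitosis genes.

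DNA replication begins when the origin recognition complex, with Cdc6 and Cdt1, loads the ring-shaped MCM helicase on DNA in the gap before S phase. E2F factors and cyclin E with Cdk2 then drive entry into S phase, and the helicase unwinds DNA ahead of polymerases that are held by the sliding clamp PCNA. Mitosis genes are switched on later, in G2, through the MuvB complex with B-Myb and Foxm1, and their products condense chromosomes, build the spindle, check the attachment of chromosomes and divide the cell. In bulk tumors the RNA of both sets is commonly read as a measure of dividing cells, while MCM genes are also expressed by cells that are licensed but not dividing.

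E2F factors are known to bind TTTCCCGC and close variants, while the cell cycle genes homology region (CHR, TTTGAA) beside CCAAT boxes is a mark of G2 and mitosis promoters. RefSeq promoter windows of 300 bases in GRCm38.p6, from 250 bases before to 50 after the gene start, were given for 31 of the 38 genes and were searched on both strands. At least 1 of the E2F words TTTCCCGC, TTTGGCGC and TTTCGCGC was found in 6 of 13 replication promoters (46.2%), in 1 of 18 mitosis promoters (5.56%) and in 1.91% of 27025 promoters of all genes. The CHR word TTTGAA was found in 1 of 13 replication promoters (7.69%), 13 of 18 mitosis promoters (72.2%) and 18.1% of all. CCAAT was found in 8 of 13, 15 of 18 and 37.9% of all promoters, and CHR together with CCAAT in 1 of 13, 13 of 18 and 7.12%. These are matches of letters, and overlapping E2F words on the 2 strands count as 1 promoter. Each window lies at a single listed start of its gene, and whether it holds the promoter in use was not tested. A window without an E2F word, such as that of E2f1, does not show that the gene's promoter lacks one. The E2F words were in the promoters of Mcm3, Mcm5, Mcm6, Mcm7, Cdc6 and Cdt1, and among mitosis genes in that of Cdk1. No window was used for Mcm4, Ccne2, Ccna2, Foxm1, Aurkb, Kif20a and Tpx2.

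The 200 bases before the start are shown for 3 genes of each set, 5′ to 3′ on the strand of the gene, with each match of an E2F word, TTTGAA or CCAAT, on either strand, in capitals. Mcm2 and Mcm5 are shown because their RNA differed between the groups, Mcm6 because it did not pass although it belongs to the same ring, and Cdk1, Cdc20 and Top2a because they varied between single tumors. The windows are chr6:88898781-88898980 (minus strand) for Mcm2, chr8:75109309-75109508 (plus) for Mcm5 and chr1:128359706-128359905 (minus) for Mcm6. Those of Cdk1, Cdc20 and Top2a, all on the minus strand, are chr10:69352913-69353112, chr4:118437344-118437543 and chr11:99024190-99024389.
Mcm2: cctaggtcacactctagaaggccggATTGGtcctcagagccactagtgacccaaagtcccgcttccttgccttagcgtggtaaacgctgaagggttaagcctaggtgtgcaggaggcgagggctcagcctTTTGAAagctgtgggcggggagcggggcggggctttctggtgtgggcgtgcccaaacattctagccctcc
Mcm5: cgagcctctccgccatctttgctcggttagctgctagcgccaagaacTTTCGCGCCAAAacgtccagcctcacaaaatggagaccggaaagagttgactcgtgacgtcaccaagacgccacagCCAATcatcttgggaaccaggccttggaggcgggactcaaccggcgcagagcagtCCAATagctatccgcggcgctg
Mcm6: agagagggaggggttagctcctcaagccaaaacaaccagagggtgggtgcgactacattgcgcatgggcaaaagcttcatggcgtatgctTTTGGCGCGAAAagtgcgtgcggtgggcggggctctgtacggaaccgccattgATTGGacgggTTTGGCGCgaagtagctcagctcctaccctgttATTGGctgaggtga
Cdk1: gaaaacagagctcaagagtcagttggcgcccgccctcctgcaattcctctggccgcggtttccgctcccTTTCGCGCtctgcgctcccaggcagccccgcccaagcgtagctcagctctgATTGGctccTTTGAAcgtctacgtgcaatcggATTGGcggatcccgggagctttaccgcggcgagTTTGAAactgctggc
Cdc20: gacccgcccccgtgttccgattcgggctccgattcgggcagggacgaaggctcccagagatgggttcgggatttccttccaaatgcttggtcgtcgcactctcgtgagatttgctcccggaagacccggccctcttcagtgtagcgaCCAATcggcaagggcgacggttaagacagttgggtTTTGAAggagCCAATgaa
Top2a: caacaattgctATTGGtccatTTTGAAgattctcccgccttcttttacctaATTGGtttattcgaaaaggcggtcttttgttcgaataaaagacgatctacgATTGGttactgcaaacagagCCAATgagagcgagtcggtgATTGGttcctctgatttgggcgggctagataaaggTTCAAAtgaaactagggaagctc
In Mcm5 the E2F words on both strands overlap, between 153 and 142 bases before the start. Mcm6 has such a pair between 110 and 99 bases and a further E2F word from 47 to 40 bases before the start. In Mcm2, by contrast, none of the 3 E2F words was found, and TTTGAA lies 70 to 65 bases before the start. Cdc20 has TTTGAA from 18 to 13 bases and CCAAT from 53 to 49 bases before the start, and Cdk1 has TTTGAA from 15 to 10 bases and CCAAT, read on the other strand, from 48 to 44 bases. Top2a has TTTGAA on the other strand from 23 to 18 bases and CCAAT on that strand from 58 to 54 bases before the start.

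The groups were compared on log2 intensity after background correction and quantile normalization, on a scale whose floor for an undetected probe is a little above 4. Before that, array medians of intensity were 79.4 to 89.0 (pigmented) and 87.4 to 93.9 (MPNST-like), with 17908 to 20120 and 19274 to 21581 probes detected. The arrays sat on 2 chips that each held both groups, 2 tumors of each on chip 1 and 3 of each on chip 2. The labelled tissue was checked on 8 melanocyte markers, among them Tyr, Pmel and Mlana, all of which were tested and all of which were lower in the MPNST-like tumors.

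Most replication and mitosis genes did not pass the test between pigmented and MPNST-like tumors. In limma's fit over all 11984 genes, 18.6% of genes were higher and 20.2% lower in MPNST-like tumors at a Benjamini-Hochberg adjusted p under 0.05, 38.8% in all. Of the 32 replication and mitosis genes, 5 passed, 1 of which, Ccne2, passed the detection filter only through the MPNST-like group, where it is high. Among 15 replication genes Mcm2, Mcm5 and Rrm1 fell and Ccne2 passed in the higher direction, and among 17 mitosis genes Kif23 rose and 0 fell, the last with 1 at an unadjusted p under 0.05 (Foxm1). For 0 of the 32 genes did all tumors of a group lie beyond all tumors of the other, which was the case for 25.9% of all genes. The median SD within a group, in log2 units, was 0.657 for mitosis genes, 0.385 for replication genes and 0.335 for all genes. At an equal difference, a wider spread leaves fewer genes called or without overlap. A gene that did not pass is thus not shown to be unchanged. The median log2 difference, MPNST-like minus pigmented, was -0.19 over the replication genes, 0.02 over the mitosis genes and 0.01 over all genes. In bulk tumors fewer cells of a type and less RNA per cell cannot be told apart.

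**Figure D1:**
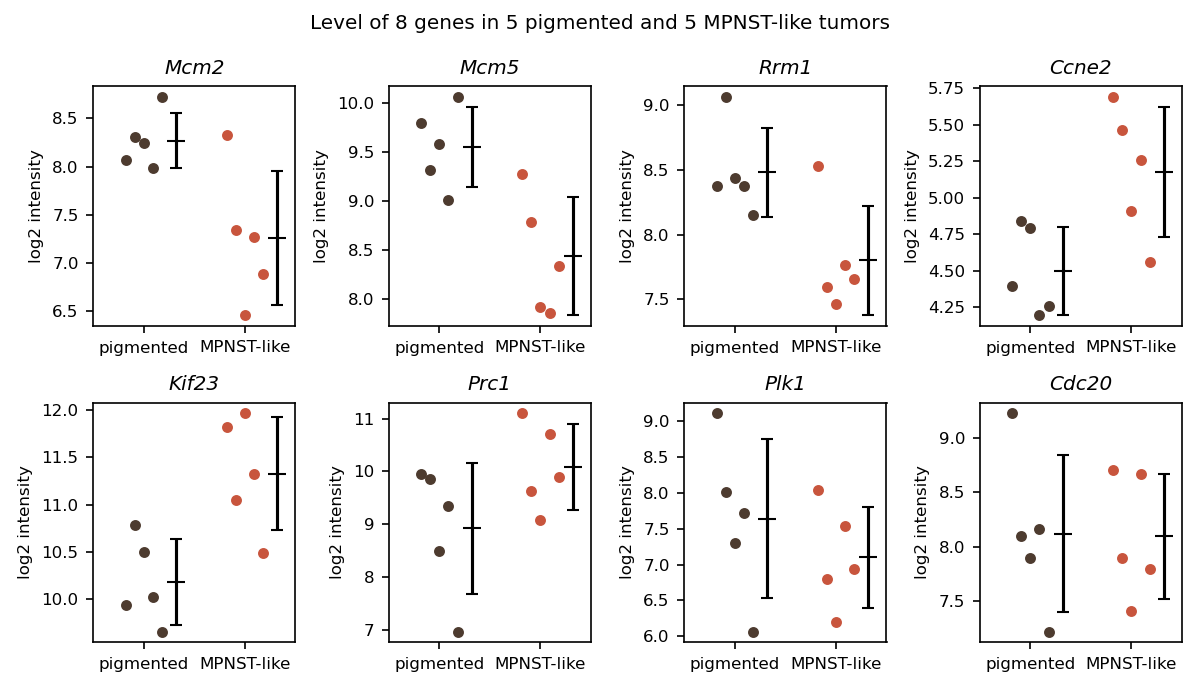
Log2 intensity (vertical axis, a different range in each panel) of 8 genes in 5 pigmented and 5 MPNST-like tumors, each point a tumor, with the mean and SD of the group beside the points. Mcm2, Mcm5 and Rrm1 are lower and Ccne2 and Kif23 higher in MPNST-like tumors with groups that overlap, whereas Prc1, Plk1 and Cdc20 spread widely within both groups.

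The MCM helicase genes, whose 6 products form a single ring, did not move alike. Mcm5 stood at 9.79, 9.32, 9.57, 9.01 and 10.06 in pigmented 1 to 5 and at 9.28, 8.79, 7.92, 7.86 and 8.34 in MPNST-like 1 to 5. MPNST-like 1 lay inside the pigmented range and the other 4 below it. The difference was -1.11 (SE 0.29, 2.17-fold lower, adjusted p = 0.012, n = 5 per group). Mcm2 stood at 8.07, 8.30, 8.24, 7.99 and 8.72 in pigmented 1 to 5 and at 8.33, 7.34, 6.46, 7.26 and 6.88 in MPNST-like 1 to 5, where again only MPNST-like 1 reached the pigmented range. Its difference was -1.01 (SE 0.30, 2.02-fold lower, adjusted p = 0.023). The other ring genes did not pass, at -0.60 for Mcm7 (SE 0.25, adjusted p = 0.078), -0.48 for Mcm3 (SE 0.25), -0.19 for Mcm6 (SE 0.23) and 0.39 for Mcm4 (SE 0.20, adjusted p = 0.14). Mcm4 thus had the other sign than Mcm5, with means of 9.39 ± 0.34 (SD, n = 5) in pigmented and 9.77 ± 0.28 in MPNST-like tumors. Further detected probes of Mcm6 gave -0.50, -0.30 and -0.22, and the second of Mcm7 gave -0.61. Mcm7 passed in 4 of 24 alternatives, among them chip 2 alone (adjusted p = 0.038) and the fit without MPNST-like 1 (adjusted p = 0.012). The differences of Mcm2 and Mcm5 were larger on chip 2, at -1.45 (adjusted p = 0.013) and -1.51 (adjusted p = 0.013), against -0.35 (adjusted p = 0.70) and -0.52 (adjusted p = 0.48) on chip 1, which holds MPNST-like 1. On chip 2, 13.3% of all genes were higher and 14.9% lower, and on chip 1, 2.13% and 1.13%. The Mcm2 call ended when pigmented 5 (adjusted p = 0.058), MPNST-like 3 (adjusted p = 0.050) or MPNST-like 5 (adjusted p = 0.054) was left out.

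The loading factors Cdc6 and Cdt1 and the clamp gene Pcna did not pass, with differences of -0.08 (SE 0.22), -0.30 (SE 0.24) and 0.11 (SE 0.19). Among genes of nucleotide supply, those of the ribonucleotide reductase subunits differed in sign. Rrm1, the large subunit, stood at 8.37, 9.06, 8.44, 8.37 and 8.15 in pigmented 1 to 5 and at 8.53, 7.60, 7.46, 7.76 and 7.65 in MPNST-like 1 to 5, so 4 MPNST-like tumors were below all pigmented ones. It was 1.60-fold lower (log2 difference -0.68, SE 0.23, adjusted p = 0.039), with -0.65 on chip 1 (adjusted p = 0.50) and -0.69 on chip 2 (adjusted p = 0.030). The call was lost in 14 of 24 alternatives (adjusted p up to 0.50). A second detected Rrm1 probe gave -0.56 (SE 0.28). Rrm2, the small subunit that is made mainly in S phase, was at 0.23 (SE 0.28, adjusted p = 0.53). Tyms, which makes thymidylate, was at 0.43 (SE 0.19, adjusted p = 0.090), with means of 7.42 ± 0.15 and 7.85 ± 0.38 (SD, n = 5 each).

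The 2 cyclin E genes, whose products start S phase with Cdk2, had opposite signs. Ccne2 stood at 4.39, 4.84, 4.79, 4.20 and 4.26 in pigmented 1 to 5 and at 5.69, 5.46, 4.91, 5.26 and 4.56 in MPNST-like 1 to 5. Only MPNST-like 5 was inside the pigmented range, and the gene was detected in 2 of 5 pigmented and 5 of 5 MPNST-like tumors, so that it passed the detection filter through the MPNST-like group and its fold is limited by background. The fitted difference was 0.68 (SE 0.23, adjusted p = 0.038), and the call was lost in 15 of 23 alternatives (adjusted p up to 0.19). Ccne1 was at -0.37 (SE 0.24, adjusted p = 0.24) and detected in 4 of 5 pigmented tumors, and without pigmented 4, where it was lowest at 4.29, it was at -0.61 (adjusted p = 0.008). E2f1, the S phase transcription factor, was at 0.20 (SE 0.22, adjusted p = 0.51).

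The scaling of the arrays moved the median difference over all genes, and the sign of several replication genes changed. The move was not the same for every gene. Mcm4 was at 0.39 with quantile normalization and -0.24 in the authors' values, while Ccne1 was at -0.37 and -0.38. A value relative to the median of all genes therefore does not remove the effect of the scaling on a single gene. Over all genes the median log2 difference was 0.01 with quantile normalization, 0.27 with median scaling and -0.22 in the authors' values. After median scaling 3 of 15 replication genes were higher (Mcm4, Tyms and Ccne2) and 0 lower, beside 29.1% and 9.21% of all genes. In the authors' values 7 were lower (Mcm2, Mcm3, Mcm5, Mcm6, Mcm7, Cdt1 and Rrm1) and 0 higher, beside 31.9% and 10.2% of all genes. Relative to the median of all genes, median scaling put Mcm5 at -1.09 and the authors' values put it at -1.46, with Mcm2 at -0.84 and -1.19, and Rrm1 at -0.54 and -0.91. Ccne2 stood 0.59 and 0.82 above that median. These 4 genes kept their sign in each of the 24 alternatives (23 for Ccne2), while Mcm3, Mcm6, Cdt1 and Cdc6, below 0 here, were above it after median scaling, and Mcm4, Pcna and E2f1, above 0 here, were below it in the authors' values. Relative to the median of all genes, Mcm3 (-0.27), Mcm6 (-0.15) and Cdt1 (-0.11) stayed below after median scaling and Cdc6 (0.15) did not. In the authors' values Pcna (0.06) stayed above that median, and Mcm4 (-0.01) and E2f1 (-0.02) were just below it.

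**Figure D2:**
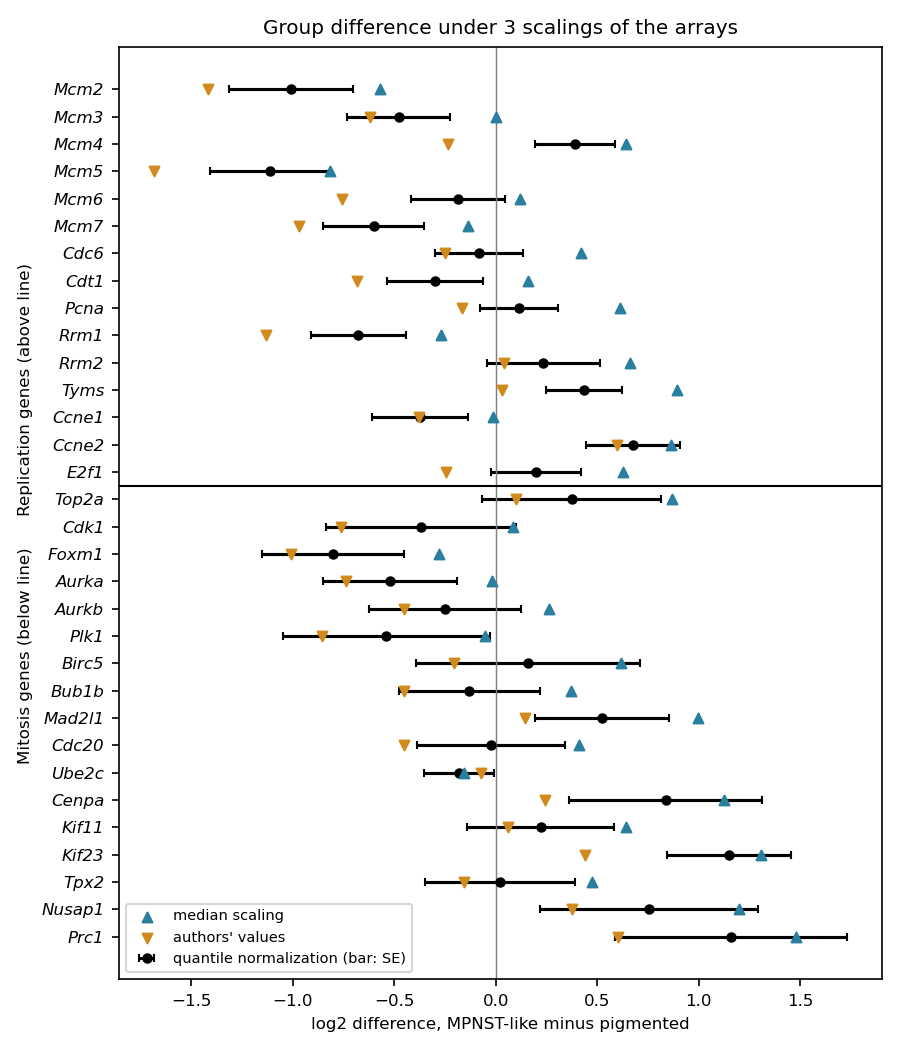
Log2 difference, MPNST-like minus pigmented (horizontal axis), of each replication gene (above the line) and mitosis gene (below it), with the SE as a bar for quantile normalization and points for median scaling and the authors' values. Mcm2, Mcm5 and Rrm1 lie below 0 and Ccne2, Kif23 and Prc1 above it under all 3 scalings, while Mcm3, Mcm6, Cdt1 and Cdc6 move above 0 after median scaling, where the median of all genes is at 0.27.

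The mitosis genes had no shared direction between the groups, with 9 of 17 differences above 0 and 8 below. Cdk1, Aurkb, Bub1b and Cdc20, below 0 here, were above it after median scaling, and Birc5 and Tpx2, above 0 here, were below it in the authors' values. Relative to the median of all genes, Cdk1 (-0.19) and Aurkb (-0.01) stayed below after median scaling, and Bub1b (0.10) and Cdc20 (0.14) did not, while Birc5 (0.02) and Tpx2 (0.07) stayed above in the authors' values. Of the factors that start mitosis, Cdk1, the mitotic kinase, was at -0.37 (SE 0.47) and Foxm1, the transcription factor of G2 genes, at -0.80 (SE 0.35, 1.74-fold lower, adjusted p = 0.093). Foxm1 was the gene of the mitosis set nearest to a call in the lower direction, and it passed with chip as a block (adjusted p = 0.046, beside 18.7% of all genes higher and 20.0% lower in that fit), with array weights (adjusted p = 0.035), in the authors' values (adjusted p = 0.018) and without MPNST-like 1 (adjusted p = 0.013). Its level was 7.45, 7.54, 6.69, 6.75 and 6.51 in pigmented 1 to 5 and 7.31, 5.88, 5.57, 6.56 and 5.62 in MPNST-like 1 to 5. The mitotic kinases Plk1, Aurka and Aurkb were at -0.54 (SE 0.51), -0.52 (SE 0.33) and -0.25 (SE 0.37), and Birc5, the survivin subunit that works with Aurkb at the centromere, at 0.16 (SE 0.55).

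Bub1b and Mad2l1, both checkpoint proteins, were at -0.13 (SE 0.35) and 0.52 (SE 0.33). Cdc20, which activates the ubiquitin ligase that ends mitosis, was at -0.03 (SE 0.36), with means of 8.12 ± 0.72 and 8.10 ± 0.57 (SD, n = 5 each). Its other 3 detected probes gave -0.68, -0.41 and -0.29, and the mean of the probes -0.35 (SE 0.35). Ube2c, the ubiquitin carrier of that ligase, was detected in 3 of 5 pigmented and 2 of 5 MPNST-like tumors and was at -0.18 (SE 0.17). Cenpa, the histone of the centromere, was at 0.84 (SE 0.48, adjusted p = 0.19), and Top2a, which untangles chromosomes, at 0.37 (SE 0.44). A second detected probe had the other sign for both, at -0.10 for Cenpa and -0.14 for Top2a, and the means of the probes were 0.37 and 0.12.

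The remaining genes act in the spindle and in cell division. Kif23, a kinesin of the central spindle, stood at 9.94, 10.78, 10.50, 10.02 and 9.66 in pigmented 1 to 5 and at 11.82, 11.05, 11.96, 11.32 and 10.49 in MPNST-like 1 to 5. Only MPNST-like 5 was within the pigmented range, and the difference was 1.15 (SE 0.30, 2.22-fold higher, adjusted p = 0.012). It was 1.07 on chip 1 (adjusted p = 0.28) and 1.20 on chip 2 (adjusted p = 0.064), and passed on neither. In the authors' values it was 0.44 (adjusted p = 0.35). Of 3 detected Kif23 probes 1 passed alone. A second probe gave 1.29 (SE 0.47) and the third 0.70 (SE 0.49), and when every detected probe was tested over all probes their adjusted p-values were 0.055 and 0.30, against 0.013 for the first. The mean of the probes gave 1.04 (adjusted p = 0.042). Prc1, the bundling protein of the same central spindle, was at 1.16 (SE 0.57, adjusted p = 0.13), a difference as large as that of Kif23 with a wider spread. Nusap1, which stabilizes spindle microtubules, was at 0.76 (SE 0.54), the motor gene Kif11 at 0.22 (SE 0.36) and the spindle assembly factor Tpx2 at 0.02 (SE 0.37).

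The other 6 mitosis genes gave no value for the comparison. The probe of Ccna2, a cyclin of S phase and mitosis, was detected on 2 of 10 arrays, and the probes of the cyclin gene Ccnb2, the checkpoint kinase gene Bub1 and the kinesin gene Kif20a on 0. The platform annotation used here names no probe for Mki67, the Ki-67 antigen, or for Ccnb1, and these were not analysed here.

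Mitosis genes varied more between tumors of a group than replication genes did. The within-group SD had a median of 0.657 log2 units over the 17 mitosis genes (0.255 to 1.05), 0.385 over the 15 replication genes (0.287 to 0.531) and 0.335 over all genes. The mitosis score of a tumor, the mean over the 17 genes of its log2 level minus the mean of the gene over all tumors, was 0.71, 0.26, -0.36, 0.14 and -1.10 in pigmented 1 to 5 and 0.82, -0.17, -0.62, 0.55 and -0.23 in MPNST-like 1 to 5. High and low tumors thus occurred in both groups, and the means differed by 0.14 against SDs of 0.69 and 0.59. That difference was 0.55 with median scaling, -0.19 in the authors' values, -0.12 without pigmented 5 and -0.05 without MPNST-like 1.

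**Figure D3:**
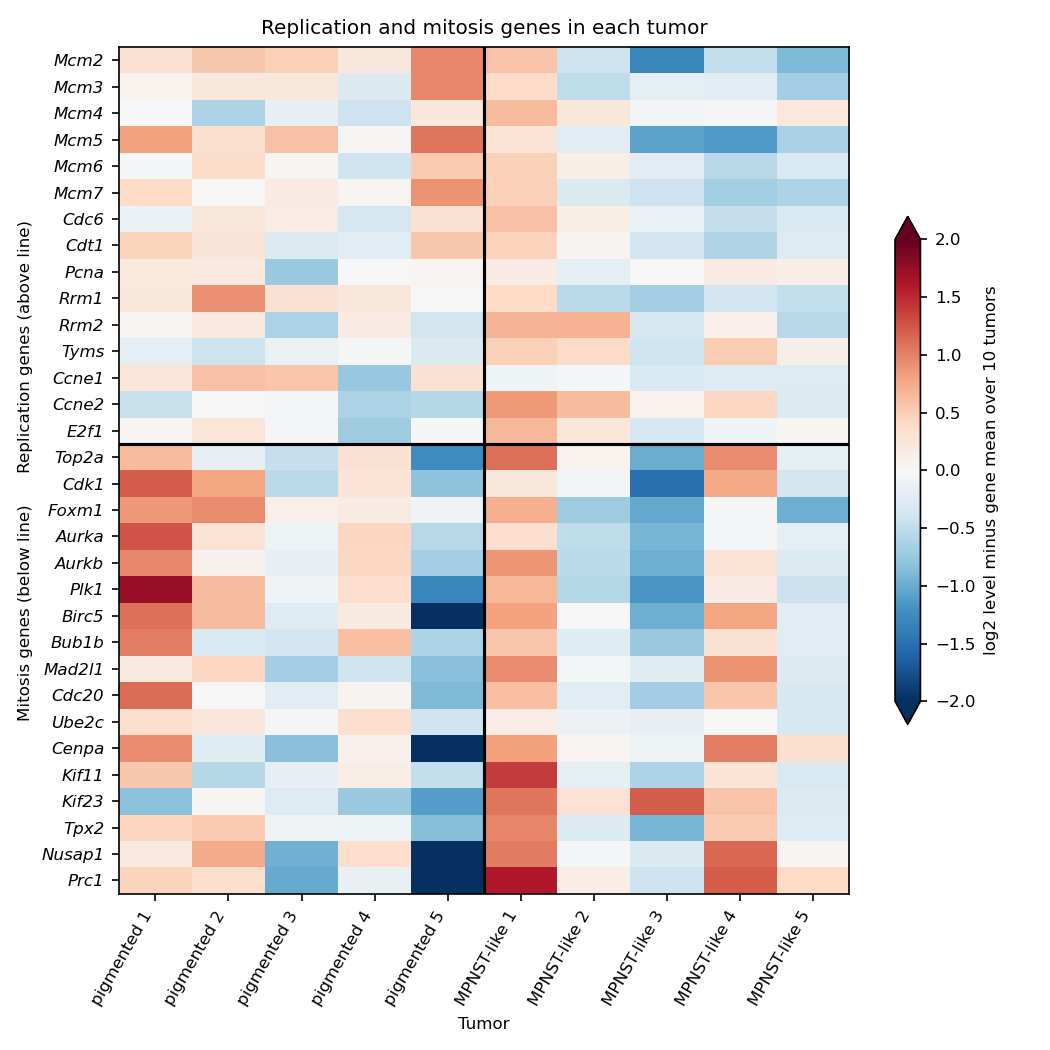
Log2 level of each tested gene minus its mean over 10 tumors (colour, clipped at the ends of the bar), with replication genes above and mitosis genes below the horizontal line and pigmented tumors left of the vertical line. Most mitosis genes are low in pigmented 5 and MPNST-like 3 and high in pigmented 1, MPNST-like 1 and MPNST-like 4, while Kif23 is low in pigmented 1 and high in MPNST-like 3.

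Many of the mitosis genes had the same tumors at the ends of their range. Pigmented 5 was the lowest pigmented tumor for 16 of 17 mitosis genes, all but Kif11, beside 18.6% of all genes. Pigmented 1 was the highest for 12 of 17, beside 18.5% of all genes, and pigmented 2 for the other 5. MPNST-like 3 was the lowest of its group for 14 of 17, beside 17.8% of all genes, and MPNST-like 1 the highest for 13 of 17, beside 29.5%. Over 8 ways of scaling or choosing probes, which include the quantile values, pigmented 5 stayed lowest for 15 to 17 of 17 genes, and for 25 of 29 detected probes. For MPNST-like 3 the range was 10 to 15 genes, the lowest in the authors' values, and 21 of 29 probes.

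Single genes show the size of this spread. Plk1 was at 9.11, 8.01, 7.30, 7.72 and 6.07 in pigmented 1 to 5 and at 8.04, 6.80, 6.20, 7.54 and 6.94 in MPNST-like 1 to 5. The widest gap for Plk1, between pigmented 1 and pigmented 5, is thus within a group. Birc5 was at 8.70, 8.24, 7.34, 7.78 and 5.56 in pigmented 1 to 5 and at 8.41, 7.61, 6.63, 8.39 and 7.38 in MPNST-like 1 to 5, with the same tumors at the bottom of each group. Prc1 was at 9.94, 9.85, 8.49, 9.35 and 6.97 in pigmented 1 to 5 and at 11.10, 9.63, 9.08, 10.70 and 9.89 in MPNST-like 1 to 5, where MPNST-like 1 and 4 exceeded every pigmented tumor. Cdk1 was at 9.10, 8.68, 7.35, 8.16 and 7.08 in pigmented 1 to 5 and at 8.11, 7.84, 6.40, 8.66 and 7.52 in MPNST-like 1 to 5. For Cdk1 MPNST-like 4 was the highest of its group.

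Read by its brightest probe, Kif23 was lowest among pigmented tumors in pigmented 5 (9.66), as most of the set was. In the MPNST-like group its ends differed from those of the set. That probe was lowest there in MPNST-like 5 (10.49) and highest in MPNST-like 3 (11.96), the tumor where 14 of 17 mitosis genes were lowest within that group. By its other 2 detected probes Kif23 followed the set. The second probe read 8.27, 7.38, 6.97, 7.95 and 5.55 in pigmented 1 to 5 and 9.18, 8.10, 7.82, 9.06 and 8.38 in MPNST-like 1 to 5, with pigmented 5 and MPNST-like 3 at the bottom of their groups. The third read 4.22 in pigmented 5 and 5.85 in MPNST-like 3, again the lowest of each group.

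Replication genes did not follow the mitosis genes across the pigmented tumors. The replication score, formed in the same way over 15 genes, was 0.13, 0.20, 0.03, -0.21 and 0.30 in pigmented 1 to 5 and 0.47, 0.02, -0.38, -0.25 and -0.32 in MPNST-like 1 to 5. Pigmented 5, the lowest tumor for mitosis genes, was the highest pigmented tumor for 8 of 15 replication genes, beside 22.5% of all genes, among them Mcm2 (8.72), Mcm3 (6.77), Mcm4 (9.81), Mcm5 (10.06), Mcm6 (9.59) and Mcm7 (8.35), the whole helicase ring. Its replication score exceeded its mitosis score by 1.41, and the next highest gap of any tumor was 0.39, in pigmented 3. The lowest gap was -0.80, in MPNST-like 4, followed by -0.58 in pigmented 1 and -0.35 in both MPNST-like 1 and pigmented 4. The gap of pigmented 5 was 0.999 to 1.57 over the 8 ways of scaling or choosing probes and the highest of the 10 tumors in each. The number of replication genes for which it was the highest pigmented tumor was lowest after median scaling, at 4 of 15, with its replication score at -0.06 there. MPNST-like 1 was high for both sets, as the highest of its group for 11 of 15 replication genes, beside 29.5% of all genes. MPNST-like 3 was the lowest for 6 of 15, beside 17.8% of all genes, and MPNST-like 4 for 5 of 15, beside 16.65%. Among pigmented tumors, pigmented 4 was the lowest for 8 of 15, beside 20.1% of all genes.

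**Figure D4:**
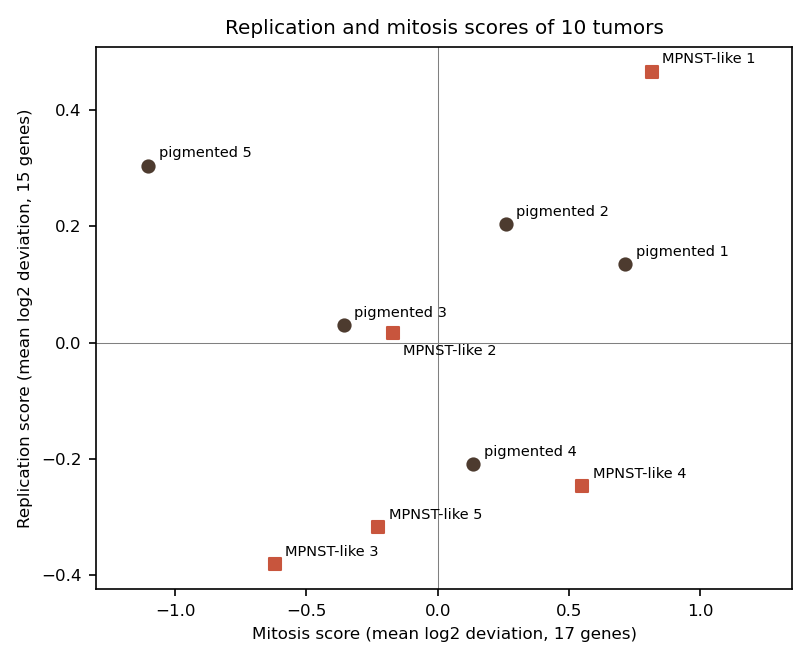
Replication score (vertical axis, mean log2 deviation over 15 genes) against mitosis score (horizontal axis, mean log2 deviation over 17 genes) of 5 pigmented tumors (circles) and 5 MPNST-like tumors (squares). Pigmented 5 lies at the far left with a replication score of 0.30, and MPNST-like 4 lies to the right with one of -0.25.

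With the mitosis score of each tumor as a covariate, an alternative chosen after seeing the data, Mcm2, Mcm5, Rrm1 and Ccne2 passed again, Ccne2 with the same limit from the detection filter. Mcm2 was then at -1.04 (SE 0.31, adjusted p = 0.024), Mcm5 at -1.12 (SE 0.31, adjusted p = 0.018), Rrm1 at -0.73 (SE 0.20, adjusted p = 0.017) and Ccne2 at 0.64 (SE 0.23, adjusted p = 0.046). In that fit 18.4% of all genes were higher and 19.6% lower. The mitosis score itself differed by only 0.14 between the groups, against SDs of 0.69 and 0.59. The covariate could therefore move the group differences little, and no conclusion on dividing cells is drawn from it.

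Further genes of the pathway came from lists written for this work. Of 45 other replication genes 40 were tested, 6 rose and 7 fell, counts that are near or below the 18.6% and 20.2% of all genes. The subunits of the single-strand binding protein RPA were split, with Rpa3 at 1.81 (SE 0.26, adjusted p = 3.8e-04) and Rpa1 at -1.78 (SE 0.19, adjusted p = 7.9e-05), in both cases with groups that did not overlap. Tipin, of the fork protection complex, rose by 1.27, the clamp loader gene Rfc1 by 1.15 and the origin recognition gene Orc6 by 0.84. The flap nuclease gene Fen1 fell by 1.04, the polymerase gene Pole by 0.92 and the chromatin assembly gene Chaf1b by 0.91. Of 52 other mitosis genes 42 were tested, 5 rose and 4 fell, both below those shares of all genes. Anln, needed for the cleavage furrow, rose by 1.20, the kinetochore gene Cenpk by 1.16, the centriole kinase gene Plk4 by 0.98 and the kinesin gene Kif18a by 0.98. The checkpoint genes Bub3 and Mad1l1 fell by 1.08 and 1.04, the phosphatase gene Cdc25b by 0.95 and Fzr1, which activates the ubiquitin ligase in G1, by 0.54. Cenpk and Kif18a were each detected in 3 of 5 pigmented tumors. After median scaling Pole, Chaf1b, Mad1l1 and Fzr1 kept their sign and did not pass (adjusted p = 0.31, 0.34, 0.067 and 0.35). In the authors' values Rfc1, Orc6, Anln and Plk4 kept their sign and did not pass (adjusted p = 0.084, 0.066, 0.13 and 0.062). The score of the other mitosis genes had the same low tumors as the set above, at -0.69 in pigmented 5 and -0.46 in MPNST-like 3. It also had the same high ones, at 0.40 in pigmented 1, 0.74 in MPNST-like 1 and 0.44 in MPNST-like 4. The score of the other replication genes was 0.18, -0.11, -0.13, -0.08 and 0.17 in pigmented 1 to 5. By that score pigmented 5 was close to pigmented 1 and not the highest pigmented tumor.

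Regulators of these genes are read against the same 18.6% higher and 20.2% lower among all genes. Of 18 E2F, retinoblastoma and DREAM complex genes 14 were tested, of which 2 rose (E2f5 by 1.44 and the E2F partner gene Tfdp1 by 0.72) and 3 fell (E2f3 by 0.93, the histone binding gene Rbbp4 by 0.67 and the repressor gene E2f4 by 0.46). Of 14 regulators of the G1 phase 3 passed in the higher direction and 4 fell. Of the 3, Cdk6 passed the detection filter only through the group where it is high. The inhibitor genes Cdkn2b and Cdkn2c rose by 1.23 and 1.06, Cdkn2a fell by 1.37 and the phosphatase gene Cdc25a by 0.77. Cdk6 was detected in 0 of 5 pigmented and 5 of 5 MPNST-like tumors. Cdk4, of which these mice carry a mutant allele, fell by 0.75 (SE 0.24, adjusted p = 0.029), from 9.73 ± 0.42 to 8.98 ± 0.38 (SD, n = 5 each), and stood at -0.47 (adjusted p = 0.21) after median scaling. After median scaling E2f4 stood at 0.04, on the other side of 0, and Rbbp4 (-0.18), Cdc25a (-0.26) and Cdkn2a (-1.07) did not pass. In the authors' values Tfdp1 (0.34, adjusted p = 0.17), Cdkn2b (0.62, adjusted p = 0.26) and Cdkn2c (0.67, adjusted p = 0.15) did not pass. Cdk2, the partner of cyclin E, had the largest difference among the genes named from these lists, with levels of 13.09, 12.12, 12.48, 12.21 and 12.51 in pigmented 1 to 5 and 9.02, 9.25, 9.03, 9.21 and 10.80 in MPNST-like 1 to 5. It was 8.10-fold lower (log2 difference -3.02, SE 0.34, adjusted p = 1.1e-04), and the groups did not overlap. Cdk2 lies next to the pigment gene Pmel in GRCm38.p6, and Pmel differed by -7.44. MPNST-like 5, the MPNST-like tumor with the highest Cdk2 level, also had the highest melanocyte score of its group, at 0.07 against -4.71 to -2.15 in the others. The position of the Cdk2 probe was not analysed here, and the part of the neighbouring gene in this value was not tested.

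Markers of other cells moved with the groups beside these results. Of 8 tested fibroblast markers 8 were higher in MPNST-like tumors, and their summed linear level was 1483 to 16965 among pigmented and 29289 to 45369 among MPNST-like tumors. Of 7 tested macrophage markers 7 were higher, with sums of 861 to 5616 and 3555 to 11045, and of 7 endothelial markers 3 were higher, with sums of 335 to 873 and 982 to 2096. Keratinocyte, T cell and skeletal muscle markers had 0 genes past the test among 7, 5 and 7, and 1 of 2 tested B and plasma cell markers was higher. Of 5 erythroid markers 2 were lower. None of the tested markers of these lists was undetected throughout a group. Pigmented 1 and pigmented 5, the highest and the lowest pigmented tumor for mitosis genes, had fibroblast scores of -2.66 and -2.97, keratinocyte scores of -1.52 and -2.02 and macrophage scores of -2.01 and -1.88. Their skeletal muscle scores were -0.59 and -3.01, T cell scores -0.55 and 0.25, endothelial scores -1.19 and -0.52, B and plasma cell scores -0.47 and -0.39, erythroid scores 1.02 and 0.54 and melanocyte scores 2.98 and 2.73. Skeletal muscle scores were 3.47 in pigmented 4, 4.09 in MPNST-like 2 and 3.94 in MPNST-like 5. Without these 3 tumors 14.2% of all genes were higher and 14.2% lower. The calls of Mcm2 (-0.99, adjusted p = 0.10), Rrm1 (-0.59, adjusted p = 0.19) and Ccne2 (0.71, adjusted p = 0.067) then ended. Mcm5 kept its call at -1.33 (adjusted p = 0.028), and Ccne1, not called with all tumors, passed at -0.64 (adjusted p = 0.031). Ccne1 also passed when only pigmented 4 of these 3 tumors was left out (-0.61, adjusted p = 0.008). Among mitosis genes 1 of 17 was higher and 0 lower without the 3 tumors. The mitosis score by chip was 0.26 and 0.71 on chip 1 and -1.10 to 0.14 on chip 2 in pigmented tumors, and -0.17 and 0.82 on chip 1 and -0.62 to 0.55 on chip 2 in MPNST-like tumors. The part of these cells and of the chip in the differences was not tested beyond the within-chip values given above.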

How the data were processed

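Total RNA of 10 frozen tumors was hybridised to Illumina MouseWG-6 v2.0 arrays with 45281 probes. For each probe and array the deposited table holds an average intensity beside its detection p-value, per the file headers, with no normalization between arrays. The authors' values, deposited on a log2 scale, served as an alternative. Their normalization is not given in the sources used here.

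Intensity was background corrected and quantile normalized (neqc, offset 16, limma 3.58.1, R 4.3.3). Probes with a detection p under 0.05 on at least 3 arrays were kept (22480), and the brightest probe on average stood for each symbol (11984 genes). Of all probes 34885 had 1 symbol, 18 several and 10378 none. The group difference was fitted by limma (lmFit, then eBayes), with p-values adjusted over all genes by Benjamini-Hochberg. On simulated data for this comparison (11984 genes), 50% of genes with a log2 change of 1 were recovered, and 88% and 92% of those with -2 and 2. The number of arrays limits the precision.

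All 38 genes are named, and from each further pathway list up to 4 genes in each direction. The genes and lists were chosen with earlier results of these data known. Alternatives covered background, normalization, the authors' values, detection filter, probe rule, chip, variance model, array weights and tumors left out. The mitosis score as a covariate and the order of tumors under other scalings were added after seeing the data. Tumors were numbered in accession order. Promoter sequences are from RefSeq (GRCm38.p6).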

Additional observations from a re-analysis of the deposited data

Results flagged for a closer look

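Among 68 groups of 5 values examined, for each gene and score, 3 held a tumor far from the other 4 by Dixon's criterion for 5 samples (0.71), where chance gives about 1 in 20 groups. Pcna was lowest in pigmented 3, at 6.006 on the log2 scale, with the next pigmented tumor at 6.758 and the highest at 6.971. Rrm1 was highest in MPNST-like 1, at 8.533, with the next at 7.763 and the lowest at 7.464. Ccne1 was lowest in pigmented 4, at 4.294, with the next at 5.297 and the highest at 5.642.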

How the results depend on the processing

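Over 766 pairs of a gene and an alternative, 709 stayed on their side of the threshold, 40 lost a call and 17 gained one. No called value changed sign, and 44 of the 709 changed sign with neither value called. Of all genes, quantile normalization put 2228 higher and 2418 lower, and median scaling 3486 and 1104. The authors' values put 1220 higher and 3820 lower, and chip 1 alone 255 and 135. Chip 2 alone put 1593 higher and 1783 lower, chip as a block 2240 and 2401, and array weights 2565 and 2857. Normexp put 2133 higher and 2398 lower, and no background correction 2077 and 2376. With no filter 2036 of 19057 were higher and 2310 lower, and with the stricter filter 2132 of 10001 and 2397. Leaving out each tumor gave 1841 to 2375 higher and 2018 to 2620 lower. Over all genes no count was taken at an adjusted p under 0.01. The count of higher replication genes was 3 after median scaling and 0 at an adjusted p under 0.01, with normexp, with no background correction, in the authors' values, with no filter, with the stricter filter, on chip 1, on chip 2, with array weights and without the 3 tumors with muscle RNA. It was 0 to 2 when each tumor was left out, 0 without pigmented 1, 4 or 5 or MPNST-like 1, 2 or 4 and 2 without MPNST-like 3. The count of lower replication genes was 0 at an adjusted p under 0.01, on chip 1 and with median scaling, and 7 in the authors' values. It was 1 to 4 when each tumor was left out, 1 without MPNST-like 3 or MPNST-like 5. The count of higher mitosis genes was 0 at an adjusted p under 0.01, in the authors' values, on chip 1 and on chip 2. The count of lower mitosis genes was 1 in the authors' values, with chip as a block and with array weights, and 0 to 1 when each tumor was left out, 1 without MPNST-like 1. The difference in replication score was -0.19, with 0.21 under median scaling and -0.52 for the authors' values. The cause of these changes was not tested. No paired analysis was possible because the labels give no replicate numbers. The number of arrays and, for Ccne2, Ccne1 and Ube2c, signal close to background limit what could be detected.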
